A study of Mus musculus with 6 samples.

Results

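Autophagy and mitophagy genes encode the proteins that wrap cytoplasm or whole organelles in a double membrane and hand them to the lysosome. The 43 genes described here were chosen by symbol, for their known part in starting the autophagosome, attaching ubiquitin-like Atg8 proteins to its membrane, recognising cargo, marking mitochondria, or forming and controlling lysosomes. All 43 were found, each as 1 row, among the 41449 rows of the table. They were measured by RNA sequencing of lens RNA from 2-month-old mice, in 3 libraries of fibronectin conditional knockout mice (FNcKO, mixed background of C57BL/6, 129 and FVB/N) and 3 libraries of wild-type mice (WT, strain C57BL/6). Each library was made from 2 lenses, and the labels call the 3 libraries of a genotype biological replicates. The labels name neither the Cre driver nor the floxed allele. Genotype and strain background cannot be told apart in this comparison, because strain divides the libraries exactly as genotype does. The comparison was made to learn what fibronectin, an extracellular matrix glycoprotein, does in the lens after birth.

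The lens has a particular use for these genes. A single layer of epithelial cells divides and becomes fiber cells, and a maturing fiber cell destroys its mitochondria, endoplasmic reticulum, Golgi and nucleus, so that the center of the lens is free of organelles. In mice, Bnip3l is known to be needed for the removal of mitochondria and endoplasmic reticulum from fibers. Mouse lenses without Atg5 are known to develop cataract with age while organelle loss still takes place.

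The values are FPKM, fragments scaled by transcript length and by the size of the library, so levels of different genes can be set side by side. The lens origin of the libraries was clear from the markers: Mip, the main membrane protein of fibers, stood at 560, 575 and 539 FPKM in FNcKO replicates 1 to 3 and at 464, 503 and 509 FPKM in WT replicates 1 to 3. Fn1, the targeted gene, was low in both genotypes, at 0.128, 0.0482 and 0.0942 FPKM in FNcKO and 0.135, 0.188 and 0.253 FPKM in WT. Crystallins took 28.9% to 37.1% of the FPKM in FNcKO and 22.6% to 24.5% in WT, and total FPKM ran from 1251386 to 1519627 in FNcKO and from 1631866 to 1725738 in WT. FNcKO replicate 2 had the lowest total and the highest crystallin share. WT replicate 2 has no value from chromosome 9, position 51213690, to the end of the table, so Pik3r4, Fundc1, Lamp2 and Atg4a have 2 WT values. Summed markers of lens epithelium lay between 1460 and 1680 FPKM in FNcKO and between 1380 and 1430 FPKM in WT. Of these 10 markers 6 had a log2 difference, FNcKO minus WT, above 0, and the median was 0.02. Cd24a made up most of the sum, at 952, 1070 and 1000 FPKM in FNcKO and 828, 838 and 848 FPKM in WT. Epha2 and Slc7a5 were called higher, by the test given below, in which 1.89% of all genes tested were called. Pax6 (log2 difference 0.02) and Foxe3 (-0.28) were not called. The 10 photoreceptor markers with every value summed to 36.8 to 37.3 FPKM in FNcKO and 25.2 to 68.4 FPKM in WT. Gnat1, a rod marker left out of that sum for want of a value in WT replicate 2, was called lower, with 8.84, 9.63 and 9.77 FPKM in FNcKO and 18.9 and 22.2 FPKM in WT (adjusted p = 0.0215 in limma). Macrophage markers summed to 0.851 to 2.97 FPKM in FNcKO and 2.17 to 3.92 FPKM in WT, and no macrophage marker reached a mean of 1 FPKM over the 6 libraries. Summed markers of red blood cells, which are rich in Bnip3l, lay between 8.01 and 9.73 FPKM in FNcKO and between 6.78 and 8.64 FPKM in WT. Of these markers Bpgm alone passed 1 FPKM, and Slc4a1 was at 0 in every library. Summed markers of ciliary body and iris stood at 57.2 to 75.4 FPKM in FNcKO and 22.6 to 32.5 FPKM in WT. The largest part of this sum was Optc, with 47.7, 31.4 and 49.5 FPKM in FNcKO and 19.8, 14.2 and 20.8 FPKM in WT. It was not called (adjusted p = 0.0682 in limma). Of these 6, Aqp1, a water channel, was called higher, with 11.1, 18.4 and 17.3 FPKM in FNcKO and 4.19, 5.48 and 6.14 FPKM in WT (adjusted p = 0.0432 in limma). Which cells the Aqp1 RNA came from was not tested. Pigment cell markers summed to 6.67 to 8.46 FPKM in FNcKO and 11.6 to 19.0 FPKM in WT. Of them, Ttr and Oca2 alone reached a mean of 1 FPKM and were tested. Neither was called (adjusted p = 0.0887 for Ttr and 0.0798 for Oca2 in limma). Ttr was the largest part, at 3.14, 3.36 and 4.54 FPKM in FNcKO and 6.53, 7.97 and 12.1 FPKM in WT. Tyr, Tyrp1, Dct, Pmel and Rpe65 overlapped between genotypes, while Ttr, Oca2 and Mlana were lower in FNcKO without overlap. The part of neighbouring tissue in the values below was not tested. In these bulk samples, fewer cells of a type and less RNA per cell cannot be told apart.

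No autophagy or mitophagy gene passed the test for a difference between FNcKO and WT lenses. The comparison used limma, two-sided, on log2(FPKM + 1) for the 10149 genes whose mean reached 1 FPKM. P-values were adjusted by Benjamini-Hochberg across all of these, and a gene was called at an adjusted p under 0.05. Of the 43 members, 39 passed the filter on the mean. Of these 39, 0 were called higher and 0 lower, against 1.89% of all genes tested (192 genes). Before adjustment 4 members had p under 0.05, which is 10.3% of the 39, against 18.1% of all genes tested. The smallest adjusted p among members was 0.225, for Atg3. FNcKO and WT values did not overlap for 8 members, 20.5% of the 39, against 25.6% of all genes tested. The log2 difference, FNcKO minus WT, was above 0 for 17 members and below 0 for 22. Over all genes tested 39.7% were above 0. The median log2 difference was -0.03 for the members, against -0.04 over all genes tested. The members' values ran from -0.34 (Atg4b) to 0.25 (Map1lc3a).

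With the libraries scaled as deposited, the 95% interval of the log2 difference lay within 1.5-fold in either direction for 37 of the 39 members (94.9%), against 77.3% of all genes tested. The exceptions were Atg4b (-0.63 to -0.04) and Map1lc3a (-0.16 to 0.66). Adding 1 FPKM narrows the intervals of low genes, and with 0.1 FPKM added instead the intervals of 28 members (71.8%) lay within 1.5-fold, against 59.5% of all genes tested. The scaling of the libraries moved this count more: it was 24 members (61.5%) with every library set to the same FPKM total, against 55.5% of all genes tested, and 7 members (17.9%) with that total taken without crystallins, against 18.2% of all genes tested. The intervals given here are those of the deposited scaling. The spread between libraries was similar in the genotypes, with a median coefficient of variation over the 43 members of 9.89% in FNcKO and 7.74% in WT. In FNcKO it ran from 2.69% to 38.7%, and in WT from 0.88% to 33.2%.

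**Figure D1:**
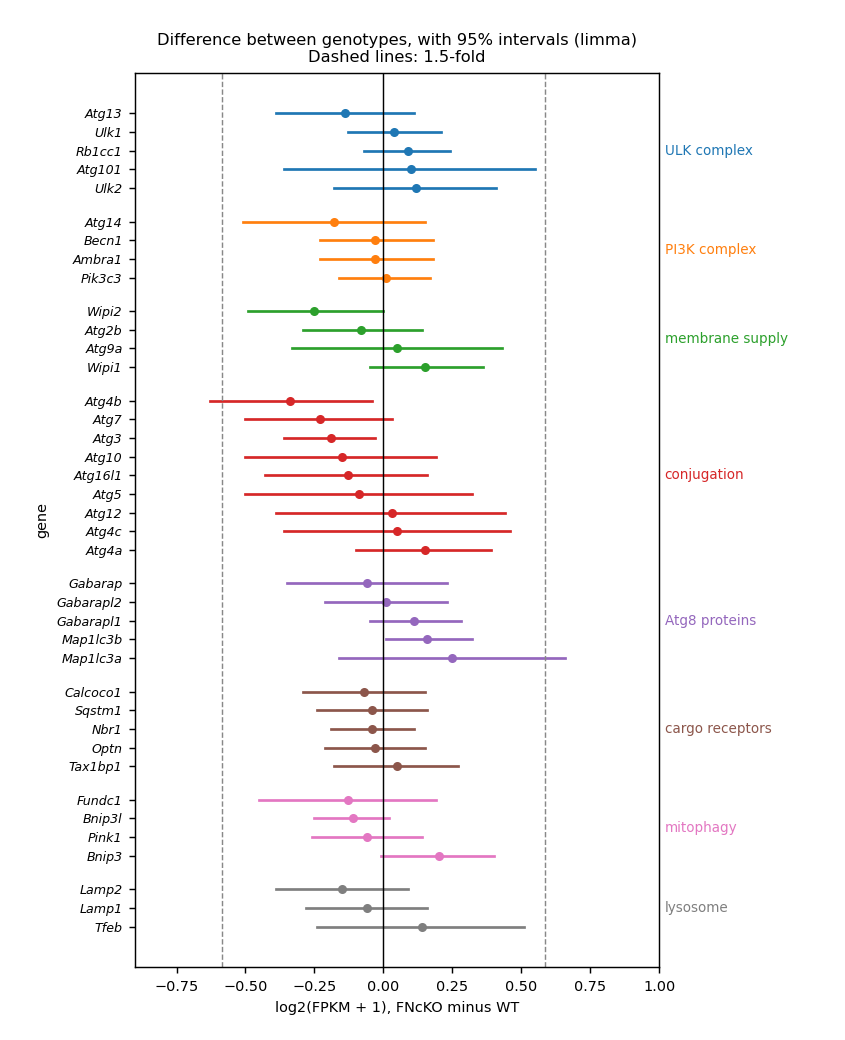
Log2 difference in FPKM + 1, FNcKO minus WT, of the 39 members tested (points) with the 95% interval from limma (lines), by role. The points lie between -0.34 and 0.25, and, as deposited, 37 intervals lie between the dashed lines at 1.5-fold.

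The members covered a wide range of levels. The 43 means over the 6 libraries ran from 0.571 FPKM (Atg4d) to 47.7 FPKM (Atg3). Of the 43, 8 had a mean of at least 20 FPKM, 14 lay between 3 and 20 FPKM, and 21 lay under 3 FPKM. The 8 abundant members were Atg3, Bnip3l, Gabarapl1, Gabarap, Sqstm1, Lamp1, Optn and Tax1bp1. All 5 cargo receptors and all 4 mitophagy genes lay above the median level of the genes tested, as did 4 of the 5 Atg8 genes. In the ULK complex 1 of 5 did, in the PI3K complex 1 of 4 tested, and in the conjugation group 2 of 9 tested. Summed over the 39 members with a value in every library, the level was 400, 411 and 387 FPKM in FNcKO replicates 1 to 3 and 395, 401 and 427 FPKM in WT replicates 1 to 3.

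**Figure D2:**
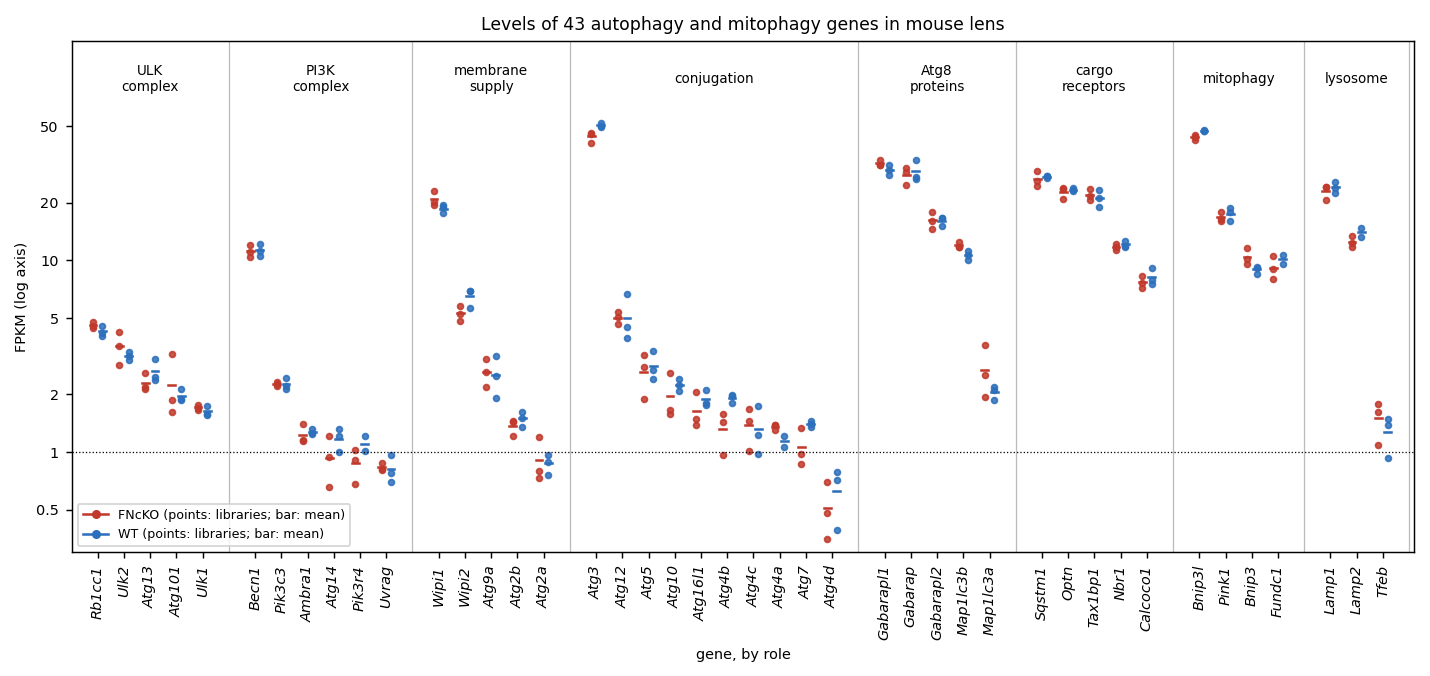
FPKM of each of the 43 members in FNcKO and WT lenses on a log axis, by role; points are libraries, bars are means, and the dotted line marks the filter of 1 FPKM. Most FNcKO and WT points overlap, and Atg3 and Bnip3l are the highest, at means of 47.7 and 45.7 FPKM over all libraries, while 21 members lie under 3 FPKM.

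The ULK complex is the kinase that starts autophagy when nutrients fall. Ulk1, its best known kinase, had 1.7, 1.77 and 1.67 FPKM in FNcKO replicates 1 to 3 and 1.59, 1.75 and 1.57 FPKM in WT replicates 1 to 3. The groups overlapped, and the log2 difference was 0.04 (SE 0.07, adjusted p = 0.795). Ulk2, the related kinase, was higher than Ulk1 in 6 of 6 libraries, by 1.71 to 2.4 times. Rb1cc1, the scaffold also called FIP200, was the most abundant member of the complex, with 4.77, 4.47 and 4.54 FPKM in FNcKO against 4.21, 4.04 and 4.57 FPKM in WT (log2 difference 0.09, SE 0.064, adjusted p = 0.547). Atg13, the regulatory subunit, averaged 2.3 ± 0.241 FPKM in FNcKO and 2.64 ± 0.379 FPKM in WT (SD, n = 3 each), with a log2 difference of -0.14 (95% interval -0.39 to 0.11). Atg101, which stabilises Atg13, averaged 2.25 ± 0.869 FPKM in FNcKO and 1.97 ± 0.148 FPKM in WT (SD, n = 3 each). Its FNcKO spread came from replicate 2, at 3.24 FPKM.

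The PI3K complex makes the lipid phosphatidylinositol 3-phosphate on the forming membrane. Becn1 (chromosome 11, 101288262 to 101302290, GRCm38), its beclin subunit, stood at 12, 10.4 and 11.1 FPKM in FNcKO and 11.2, 10.6 and 12.2 FPKM in WT. The log2 difference was -0.03 (SE 0.082, adjusted p = 0.908). The catalytic subunit Pik3c3 was lower than Becn1 in 6 of 6 libraries, by 4.45 to 5.43 times, and averaged 2.27 ± 0.061 FPKM in FNcKO and 2.26 ± 0.152 FPKM in WT (SD, n = 3 each). Atg14, which directs the complex to autophagosomes, had 1.21, 0.655 and 0.94 FPKM in FNcKO and 1.0, 1.21 and 1.32 FPKM in WT, with overlapping groups (log2 difference -0.18, SE 0.136, adjusted p = 0.557). Ambra1, a Becn1 partner, averaged 1.24 ± 0.145 FPKM in FNcKO and 1.28 ± 0.04 FPKM in WT (SD, n = 3 each). Uvrag, the subunit that takes the place of Atg14 in endosomal complexes, and Pik3r4, the regulatory subunit, lay below the filter, with Pik3r4 just outside it (mean 0.969 FPKM) and Atg14 just inside (1.06 FPKM).

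The next group brings membrane to the autophagosome. Wipi1 and Wipi2 bind phosphatidylinositol 3-phosphate, Atg2a and Atg2b transfer lipid, and Atg9a is a lipid scramblase in vesicles. Wipi1 had 19.5, 23.0 and 20.3 FPKM in FNcKO and 17.6, 18.9 and 19.5 FPKM in WT (log2 difference 0.15, SE 0.083, adjusted p = 0.398). Wipi2 had 5.23, 5.82 and 4.84 FPKM in FNcKO and 5.66, 6.89 and 6.92 FPKM in WT (log2 difference -0.25, SE 0.1, adjusted p = 0.272). Both genes had groups that touched or overlapped. Within each library Wipi1 exceeded Wipi2, by 3.73, 3.94 and 4.19 times in FNcKO and by 3.11, 2.74 and 2.82 times in WT. These ratios did not overlap. The pair is among 20 picked with the values known, and 4 of those had ratios without overlap between genotypes. No test was made of them. Atg9a averaged 2.63 ± 0.429 FPKM in FNcKO and 2.53 ± 0.628 FPKM in WT, and Atg2b 1.37 ± 0.142 FPKM in FNcKO and 1.5 ± 0.136 FPKM in WT (SD, n = 3 each). Atg2a lay below the filter, at 0.91 ± 0.253 FPKM in FNcKO and 0.875 ± 0.104 FPKM in WT (SD, n = 3 each).

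The conjugation enzymes attach Atg8 proteins to lipid, in a chain that resembles ubiquitin transfer. Atg3 (chromosome 16, 45158784 to 45188538), the E2-like enzyme that passes Atg8 proteins to phosphatidylethanolamine, was the most abundant of all 43 members. It had 46.5, 41.2 and 45.5 FPKM in FNcKO replicates 1 to 3 and 50.5, 49.9 and 52.3 FPKM in WT replicates 1 to 3. The genotypes did not overlap, with FNcKO the lower, and the log2 difference was -0.19 (SE 0.069, unadjusted p = 0.0303, adjusted p = 0.225 in limma). Atg7, the E1-like enzyme that activates Atg8 proteins and Atg12, was lower than Atg3 in 6 of 6 libraries, by 30.9 to 52.2 times. It had 0.976, 1.33 and 0.872 FPKM in FNcKO and 1.46, 1.35 and 1.41 FPKM in WT, also without overlap (log2 difference -0.23, SE 0.108, adjusted p = 0.331).

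The Atg4 proteases trim Atg8 proteins before conjugation and release them afterwards. Atg4b had 1.58, 1.43 and 0.963 FPKM in FNcKO and 1.8, 1.99 and 1.96 FPKM in WT, the largest log2 difference of any member, and the groups did not overlap (-0.34, SE 0.12, unadjusted p = 0.032, adjusted p = 0.229 in limma). Atg4a ran the other way, with 1.38, 1.39 and 1.31 FPKM in FNcKO and 1.06 and 1.22 FPKM in the 2 WT libraries with a value (log2 difference 0.15, SE 0.094, adjusted p = 0.495). Atg4b, Atg4a and Atg7 were singled out after their values were seen. Atg4c averaged 1.39 ± 0.343 FPKM in FNcKO and 1.31 ± 0.388 FPKM in WT, and Atg4d, below the filter, 0.511 ± 0.175 FPKM in FNcKO and 0.63 ± 0.209 FPKM in WT (SD, n = 3 each). The Atg4a row overlaps that of Psmd10, the Atg4d row that of Kri1, the Atg16l1 row that of Scarna6 and the Gabarapl1 row that of 1700101I11Rik, each at 1 FPKM or more, so their values are uncertain where the use of strand in counting is unknown. The pseudogene Atg4a-ps was listed at 0.18 to 0.435 FPKM in FNcKO and 0.0804 to 0.234 FPKM in WT.

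Atg12, Atg5 and Atg16l1 form the E3-like complex that sets the site of conjugation, and Atg10 joins Atg12 to Atg5. Atg5 was spread widely in both genotypes, with 1.89, 3.21 and 2.78 FPKM in FNcKO and 3.36, 2.42 and 2.7 FPKM in WT (log2 difference -0.09, SE 0.167, adjusted p = 0.83). Atg12 averaged 5.04 ± 0.365 FPKM in FNcKO and 5.03 ± 1.44 FPKM in WT (SD, n = 3 each). Atg10 averaged 1.95 ± 0.56 FPKM in FNcKO and 2.25 ± 0.159 FPKM in WT, and Atg16l1 1.65 ± 0.363 FPKM in FNcKO and 1.89 ± 0.192 FPKM in WT (SD, n = 3 each). Over the whole conjugation group of 9 tested genes, 3 log2 differences were above 0 and 6 below, with a median of -0.13. Of these 9, 4 (44.4%) had groups that did not overlap, against 25.6% of all genes tested and 20.5% of the 39 members. Among the 4, Atg4a has 2 WT values. Groups also did not overlap for 2 of 4 mitophagy genes and 2 of 5 Atg8 genes, and for 0 genes of the other roles. The 9 conjugation genes with every value summed to 62.7, 57.9 and 59.2 FPKM in FNcKO and 68.4, 65.2 and 71.0 FPKM in WT. That sum consists mostly of Atg3.

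Atg8 proteins are the ubiquitin-like proteins that coat the autophagosome and hold cargo receptors. Gabarapl1 (chromosome 6, 129533192 to 129542331) was the most abundant of the 5, with 31.3, 33.4 and 31.5 FPKM in FNcKO and 28, 29.5 and 31.3 FPKM in WT (log2 difference 0.11, SE 0.067, adjusted p = 0.44). The genotypes did not overlap, but FNcKO replicate 1 and WT replicate 3 were the same to 3 digits. Gabarap had 28.8, 30.2 and 24.8 FPKM in FNcKO and 27.4, 26.5 and 33.5 FPKM in WT (log2 difference -0.06, SE 0.118, adjusted p = 0.854), and its order against Gabarapl1 was not the same in every library. Gabarapl2 came next, at 16.3 ± 1.67 FPKM in FNcKO and 16.1 ± 0.868 FPKM in WT (SD, n = 3 each). It was below both in 6 of 6 libraries.

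The LC3 branch of the family was lower than the Gabarap branch. Map1lc3b (chromosome 8, 121590468 to 121598047), whose protein LC3B is the usual marker of autophagosomes, had 11.8, 12.5 and 11.7 FPKM in FNcKO and 10.1, 10.7 and 11.2 FPKM in WT. All FNcKO values lay above all WT values, and the log2 difference was 0.16 (SE 0.064, unadjusted p = 0.0449, adjusted p = 0.266 in limma). Map1lc3a had 1.95, 2.52 and 3.62 FPKM in FNcKO and 2.12, 1.88 and 2.2 FPKM in WT, with overlapping groups and the largest log2 difference above 0 (0.25, SE 0.169, adjusted p = 0.503). Map1lc3b exceeded Map1lc3a by 3.23 to 6.06 times across the 6 libraries. Atg8 genes are short and related in sequence, and the deposited values do not show how fragments shared between relatives were treated.

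Cargo receptors bind ubiquitin-marked or organelle cargo on one side and Atg8 proteins on the other. They were abundant, and as a group had the smallest differences of any role, with all 5 log2 differences between -0.07 and 0.05 and adjusted p from 0.721 to 0.862 in limma. Sqstm1 (chromosome 11, 50200152 to 50210820), which encodes p62, had 24.5, 29.4 and 26.1 FPKM in FNcKO and 26.8, 27.7 and 27.6 FPKM in WT (log2 difference -0.04, 95% interval -0.24 to 0.16). Optn, optineurin, a receptor for ubiquitin-marked mitochondria, had 23.7, 24.0 and 20.8 FPKM in FNcKO and 23.2, 23.0 and 23.8 FPKM in WT (log2 difference -0.03, 95% interval -0.21 to 0.15). In both genes the FNcKO values ran above and below the narrow WT range. Tax1bp1 averaged 21.9 ± 1.44 FPKM in FNcKO and 21.2 ± 2.06 FPKM in WT, and Nbr1, which works beside p62, 11.8 ± 0.459 FPKM in FNcKO and 12.1 ± 0.529 FPKM in WT (SD, n = 3 each). Calcoco1, a receptor for endoplasmic reticulum, had 7.67, 8.25 and 7.21 FPKM in FNcKO and 7.52, 7.87 and 9.15 FPKM in WT (log2 difference -0.07, SE 0.09, adjusted p = 0.721).

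Bnip3l (chromosome 14, 66985238 to 67008877), also called NIX, is the outer-membrane receptor that marks mitochondria for autophagy in maturing red cells and lens fibers. It had 44.1, 45.1 and 42.6 FPKM in FNcKO replicates 1 to 3 and 47.2, 47.3 and 48.0 FPKM in WT replicates 1 to 3, at the 92.4th percentile of the genes tested. The WT values were tightly grouped and all lay above the FNcKO values. The log2 difference was -0.11 (SE 0.055, 95% interval -0.25 to 0.02, adjusted p = 0.363 in limma). Bnip3 (chromosome 7, 138890836 to 138909506), its relative and a known target of the hypoxia factor Hif1a, had 9.58, 11.6 and 10.2 FPKM in FNcKO and 9.13, 8.54 and 9.28 FPKM in WT. Here all FNcKO values lay above all WT values (log2 difference 0.2, SE 0.084, adjusted p = 0.289). Within a library, Bnip3l exceeded Bnip3 by 4.6, 3.88 and 4.18 times in FNcKO and by 5.17, 5.54 and 5.17 times in WT.

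That ratio, taken within a library, carries no scaling between libraries, and its genotypes did not overlap (4.22 ± 0.359 in FNcKO and 5.29 ± 0.213 in WT, SD, n = 3 each). Of 20 pairs of members set against each other in this way, 4 had ratios that did not overlap between genotypes. The others were Wipi1 over Wipi2, Bnip3l over Gabarapl1 and Gabarapl1 over Sqstm1. Bnip3l and Gabarapl1 recur among these 4, and the share over other pairs of genes was not computed. The 20 pairs were picked with the values known and are given as descriptions with no test. With 3 libraries against 3 an exact two-sided permutation test cannot go below 0.1. Of the 20 pairs, 16 stood in the same order in every library. Those whose order varied were Gabarapl1 and Gabarap, Atg3 and Bnip3l, Optn and Tax1bp1, and Bnip3 and Fundc1.

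**Figure D3:**
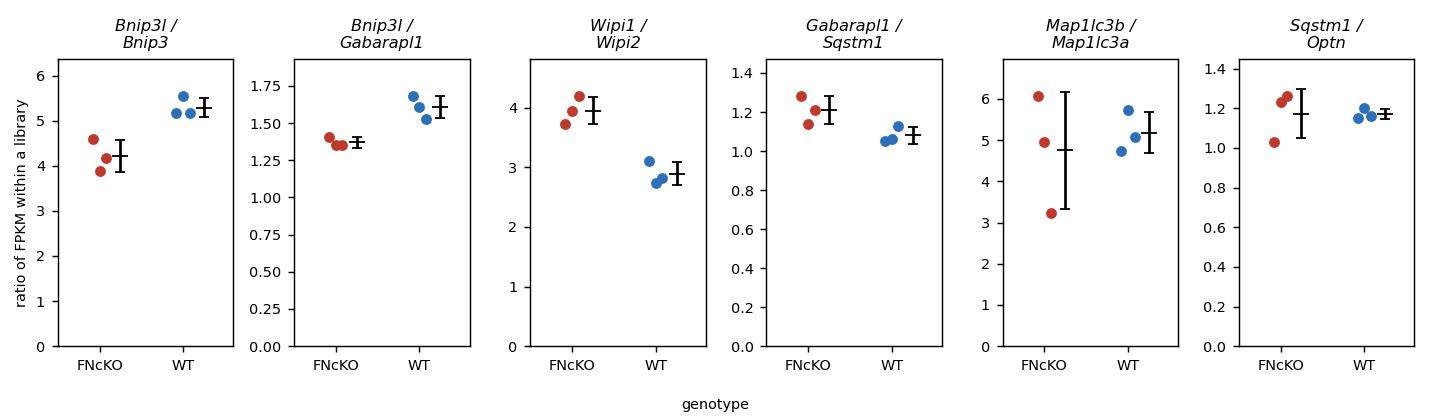
Ratio of the FPKM of a pair of members within each library, for 6 of the 20 pairs, in FNcKO and WT; points are libraries and the black mark shows the mean ± SD. The first 4 pairs do not overlap between genotypes, as for Bnip3l over Bnip3 (3.88 to 4.6 in FNcKO, 5.17 to 5.54 in WT), while Map1lc3b over Map1lc3a and Sqstm1 over Optn do.

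Pink1, the kinase that gathers on damaged mitochondria, had 16, 16.4 and 18 FPKM in FNcKO and 16, 17.8 and 18.7 FPKM in WT (log2 difference -0.06, SE 0.081, adjusted p = 0.771). Fundc1, another outer-membrane receptor, averaged 9.17 ± 1.23 FPKM in FNcKO (SD, n = 3) and 10.1 ± 0.792 FPKM in WT (SD, n = 2).

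Lamp1 and Lamp2 are the main membrane glycoproteins of the lysosome, and Tfeb is a transcription factor that drives lysosomal and autophagy genes. Lamp1 (chromosome 8, 13159161 to 13175338) had 24.2, 24.3 and 20.7 FPKM in FNcKO and 22.4, 25.7 and 24.0 FPKM in WT (log2 difference -0.06, SE 0.089, adjusted p = 0.782). Lamp2 had 11.7, 13.4 and 12.3 FPKM in FNcKO and 13.2 and 14.8 FPKM in the 2 WT libraries with a value (log2 difference -0.15, SE 0.092, adjusted p = 0.467). Tfeb was low, with 1.78, 1.09 and 1.63 FPKM in FNcKO and 1.38, 1.49 and 0.938 FPKM in WT, and the groups overlapped (log2 difference 0.14, SE 0.153, adjusted p = 0.691).

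Tfeb binds sequences built on TCACGTG, the core of the element found in many lysosomal promoters. RefSeq promoter sequences of GRCm38.p6, 250 bases before to 50 bases after a gene's start, were at hand for 36 of the 43 members and were searched for TCACGTG and its reverse complement CACGTGA. A match was found at any listed start for 4 of the 36 (11.1%), namely Atg3, Atg7, Atg14 and Lamp1, against 4.29% of the 27025 genes in the RefSeq table. The RefSeq genes were taken whether or not they were expressed in lens, so the shares are not of like sets. A match is a run of letters and no measure of binding. The promoters of Atg3 (chr16:45158579-45158878, plus strand), Atg14 (chr14:47568385-47568684, minus strand) and Lamp1 (chr8:13158911-13159210, plus strand) are shown because these members hold the element beside the start that the RefSeq table gives, with matches in capitals. The RefSeq start of Atg14 and of Lamp1 is that of the gene's row in the table, and that of Atg3 lies 45 bases inside its row. Atg7 is not shown, as its RefSeq start lies 27999 bases inside its row.
Atg3: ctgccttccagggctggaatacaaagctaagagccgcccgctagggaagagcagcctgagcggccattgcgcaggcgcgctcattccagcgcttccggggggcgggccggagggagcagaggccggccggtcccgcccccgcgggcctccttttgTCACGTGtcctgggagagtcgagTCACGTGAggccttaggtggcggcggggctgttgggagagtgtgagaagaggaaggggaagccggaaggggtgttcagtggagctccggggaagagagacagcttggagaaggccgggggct
Atg14: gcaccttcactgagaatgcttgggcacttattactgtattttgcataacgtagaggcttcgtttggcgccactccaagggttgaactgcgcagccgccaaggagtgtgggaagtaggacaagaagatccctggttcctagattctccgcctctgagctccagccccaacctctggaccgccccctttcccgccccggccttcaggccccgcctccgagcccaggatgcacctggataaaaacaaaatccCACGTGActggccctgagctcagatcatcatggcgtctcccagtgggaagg
Lamp1: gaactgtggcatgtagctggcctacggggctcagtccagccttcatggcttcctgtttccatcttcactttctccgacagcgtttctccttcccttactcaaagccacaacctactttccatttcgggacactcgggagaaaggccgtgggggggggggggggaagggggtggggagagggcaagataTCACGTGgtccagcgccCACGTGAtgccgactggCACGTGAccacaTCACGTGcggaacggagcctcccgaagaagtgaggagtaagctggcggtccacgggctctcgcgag
Atg3 has 3 matches, of which the last 2 overlap as 1 palindrome read on both strands, Lamp1 has 4 and Atg14 has 1 next to the start. The values of these 3 genes are those given above, and none was called.

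Other genes of the pathway were taken from 8 lists that hold 149 genes of the table, of which 132 passed the filter. Of these 132, 0 were called higher and 0 lower in limma, against 0.857% and 1.03% of all genes tested. An unadjusted p under 0.05 in limma was found for 18 (13.6%), against 18.1% of all genes tested. The median log2 difference of the 132 was -0.01.

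Among 17 proton pump genes, which acidify the lysosome, Atp6v1b2 lay just outside the threshold, with 9.57, 11.9 and 10.2 FPKM in FNcKO and 15.7, 15.5 and 17.5 FPKM in WT (log2 difference -0.58, SE 0.097, adjusted p = 0.0504). It was chosen for its value, and the list's median was -0.01, with Atp6v1f the most abundant at 66.0 ± 3.09 FPKM in FNcKO and 67.5 ± 1.9 FPKM in WT (SD, n = 3 each). Of 8 transcription control genes tested, Hif1a had the highest level, with 42.9, 41.2 and 39.8 FPKM in FNcKO and 49.6, 51.8 and 50.7 FPKM in WT (log2 difference -0.29, SE 0.059, adjusted p = 0.0801), without overlap. Of 27 genes of nutrient control, Sesn3, a sestrin that restrains mTORC1, was the most abundant, at 44.9 ± 1.57 FPKM in FNcKO and 54.6 ± 3.54 FPKM in WT (SD, n = 3 each; adjusted p = 0.136 in limma).

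Of 25 lysosomal hydrolase and membrane genes tested, the cathepsin gene Ctsl led at 125.5 ± 10.95 FPKM in FNcKO and 117.0 ± 3.89 FPKM in WT (SD, n = 3 each). Rab7, the small GTPase of late endosomes, led the 15 fusion genes at 23.9 ± 0.934 FPKM in FNcKO and 27.0 ± 1.05 FPKM in WT (SD, n = 3 each; adjusted p = 0.243 in limma). Fis1 led the 28 genes of mitochondrial quality control at 42.0 ± 2.63 FPKM in FNcKO and 41.8 ± 3.24 FPKM in WT (SD, n = 3 each). Sec62, of the 6 endoplasmic reticulum receptors tested, averaged 23.5 ± 1.07 FPKM in FNcKO and 24.0 ± 3.16 FPKM in WT, and Sh3glb1, of the 6 other formation genes, 25.2 ± 0.365 FPKM in FNcKO and 25.3 ± 0.894 FPKM in WT (SD, n = 3 each).

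**Figure D4:**
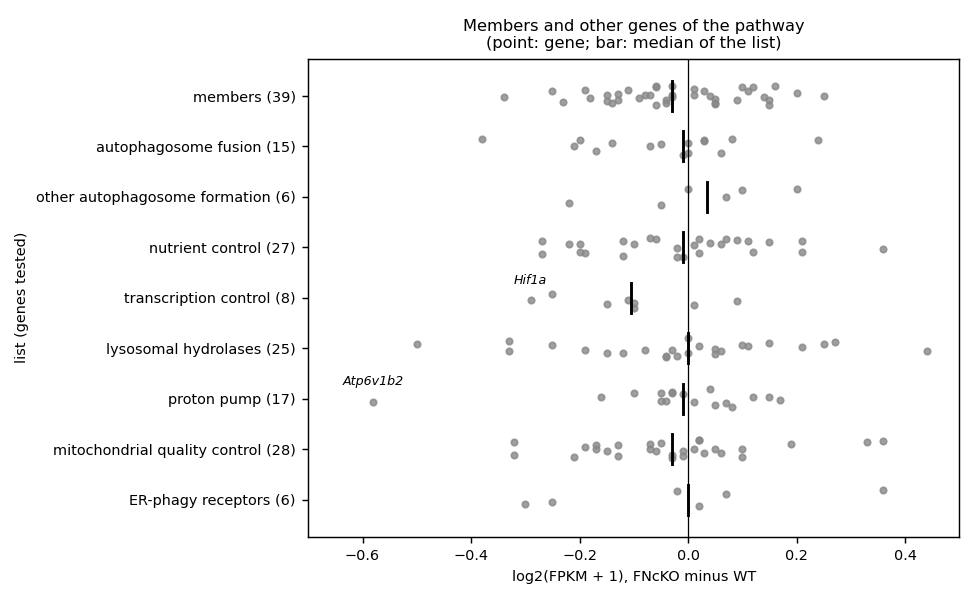
Log2 difference in FPKM + 1, FNcKO minus WT, of the members and of 8 further lists of pathway genes; each point is a gene tested and bars are medians. List medians lie between -0.11 and 0.03, and the lowest point is Atp6v1b2 at -0.58.

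The direction of small differences depended on how libraries were scaled. With every library set to the same FPKM total the median log2 difference over all genes tested was 0.15, and with the total taken without crystallins it was 0.29. The members' medians were then 0.19 and 0.35, so 35 and 38 of the 39 members lay above 0. Under neither scaling was any member called.

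**Figure D5:**
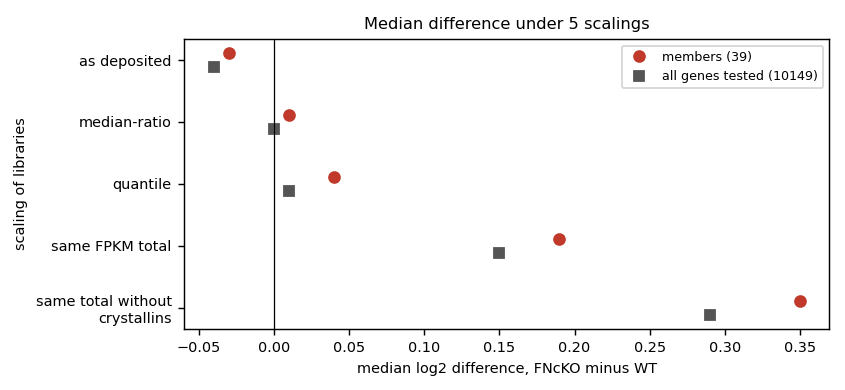
Median log2 difference, FNcKO minus WT, of the 39 members (circles) and of all 10149 genes tested (squares) under 5 scalings of the libraries. The members' median follows that of all genes, from -0.03 beside -0.04 as deposited to 0.35 beside 0.29 without crystallins in the total.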

How the data were processed

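Lens RNA of 3 FNcKO and 3 WT libraries was analysed from 1 table of FPKM that the authors computed and deposited. The submitters' processing notes name the builds mm10 and GRCm38.p5 and, with no order, the tools Cuffdiff 2.2.1, TopHat2 2.1.0, cutadapt 1.12 and FastQC. The kit marked strand and is made for very low input, per the labels' protocols. Whether counting used strand, and which annotation, is not stated in those sources. Starts were raised by 1 to count from 1. WT replicate 2 has no value in 3578 rows (8.63%), and 1 unreadable value was set to missing. Such genes were fitted on the libraries with a value.

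Genes whose mean reached 1 FPKM were tested as log2(FPKM + 1) in R 4.3.3 with limma 3.58.1, whose empirical Bayes step had a mean-variance trend, and the fit was tested on simulated data. Low values of 24 to 54 single-exon genes per library were searched for steps of whole fragments. At the best depth 50.0% to 66.7% lay within 0.15 of a whole number, too few to state a depth.

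Members, lists and the naming rule were chosen with earlier results of these data known. The rule named any called member, in each role the gene of lowest p and that of highest mean FPKM, a further fixed set of well-known members, and for each other list any called gene and the one of highest mean FPKM. A list of genes of organelle loss in fibers is not reported here. Alternatives were pseudocount, filter, scaling, trend, replicate block and leaving out each library.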

Additional observations from a re-analysis of the deposited data

How the results depend on the processing

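The count of 0 members called held under all 15 alternatives, with the smallest adjusted p of any member between 0.0865 (median-ratio scaling) and 0.368. The count of 0 other pathway genes called became 1, Atp6v1b2, with a 0.1 FPKM pseudocount, a 5 FPKM filter, median-ratio scaling or quantile normalization. The count stayed 0 under the other 11. The log2 difference of Atp6v1b2 was -0.35 with the same total and -0.18 without crystallins in it (adjusted p = 0.388 and 0.537 in limma). Its adjusted p in limma was 0.197 with the replicate block and 0.0551 to 0.171 with 1 library left out. Over all genes 192 calls became 101 without a filter, 14 with the replicate block, 89 with the same total, 86 with the same total without crystallins, and 37 to 117 with 1 library left out. The labels do not say that replicate numbers pair the libraries. Correlations of deviations for equal numbers were -0.027, -0.055 and -0.046, which cannot show whether those libraries were handled together. The share of higher calls moved too: 87 higher and 105 lower as deposited, 140 and 102 with median-ratio scaling, 119 and 78 after quantile normalization, 63 and 26 with the same total, and 66 and 20 without crystallins in it. The cause was not tested.

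Of the 39 members tested, 22 lay below 0 as deposited. The number was 17 with median-ratio scaling, 13 after quantile normalization, 4 with the same total and 1 without crystallins in it. Among the members named for their values above, and Hif1a, uncalled log2 differences below 0 turned to 0 or above as follows. Median-ratio scaling gave 0.02 for Becn1, 0.01 for Sqstm1 and 0.01 for Optn. Quantile normalization gave 0.01 for Becn1, 0.05 for Gabarap, 0.07 for Sqstm1, 0.04 for Optn, 0.00 for Bnip3l, 0.01 for Pink1 and 0.02 for Lamp1. The same total gave 0.04 for Atg13, 0.21 for Becn1, 0.05 for Atg3, 0.10 for Atg5, 0.19 for Gabarap, 0.20 for Sqstm1, 0.21 for Optn, 0.15 for Calcoco1, 0.14 for Bnip3l, 0.18 for Pink1, 0.18 for Lamp1 and 0.08 for Lamp2. Without crystallins in the total it was 0.16 for Atg13, 0.37 for Becn1, 0.03 for Atg14, 0.12 for Wipi2, 0.23 for Atg3, 0.23 for Atg5, 0.01 for Atg7, 0.36 for Gabarap, 0.37 for Sqstm1, 0.38 for Optn, 0.31 for Calcoco1, 0.31 for Bnip3l, 0.35 for Pink1, 0.35 for Lamp1, 0.25 for Lamp2 and 0.13 for Hif1a. With 1 library left out, the range was -0.2 to 0.07 for Atg5, -0.08 to 0.03 for Becn1, -0.12 to 0.05 for Gabarap, -0.12 to 0.0 for Calcoco1, -0.11 to 0.01 for Lamp1, -0.07 to 0.03 for Optn and -0.11 to 0.02 for Sqstm1. Fragment numbers are not in the table, so the counting error of members near 1 FPKM is not known.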
